A study of Mus musculus with 16 samples.

Results

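Chromatin accessibility was described at the loci of 10 genes of the mucin, trefoil and gastric program of pancreatic cancer: Muc1, Muc5ac, Muc6, Tff1, Tff2, Tff3, Gkn1, Lgals4, Agr2 and Vsig1. A peak belonged to a gene when the protein-coding start site closest to the peak midpoint, within 100 kb, was a start site of that gene. This rule uses position alone and took 51 of 136630 nuclear peaks. Agr2 held 14 peaks, Muc6, Tff1, Tff3, Lgals4 and Vsig1 held 5 each, Muc5ac and Tff2 held 4 each, and Muc1 and Gkn1 held 2 each. Peaks are named here by the distance of the midpoint from the start site, upstream or downstream in the direction of transcription, and the start-site peak of a gene is the peak whose midpoint lies closest.

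Tumor cells came from KC-shSmad4 mice, which carry a Cre allele (Ptf1a Cre/+), the transactivator and red reporter LSL-rtTA3-IRES-mKate2/+ at Rosa26 and, at Col1a1, a cassette with a doxycycline (Dox)-inducible, GFP-linked short hairpin RNA against Smad4. The Cre is driven from the Ptf1a locus of the pancreatic lineage, all 6 groups share these alleles, and the background is a C57BL/6J and 129 mixture. Cell lines from primary tumors, marked with luciferase, were placed in female Foxn1 nu mice of 6 to 8 weeks, which lack mature T cells, and which line gave each sample is not given in the sources used here. Injection into the pancreas gave the Panc groups, intrasplenic injection with splenectomy the Liv groups and tail-vein injection the Lung groups. OFF samples stayed on Dox with Smad4 depleted. By the text of the study, ON samples were taken 14 days after Dox withdrawal, while the lung column names give day 15. Withdrawal began at week 4 in the pancreas, week 5 in the liver and week 6 in the lungs. Panc_OFF, Panc_ON, Lung_OFF and Lung_ON held 3 samples each, and Liv_OFF and Liv_ON held 2 each. A library was made from 60000 sorted mKate2+ cells of 1 mouse. Organ, route of injection and time of growth changed together and cannot be told apart. The hairpin acts on RNA, so accessibility does not check the depletion of Smad4.

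Mucins are long, heavily glycosylated proteins. Muc5ac and Muc6 are secreted and form the gel over the surface and the glands of the stomach, whereas Muc1 stays anchored in the apical membrane of epithelial cells. Trefoil factors are small secreted peptides, packed with mucins in the same cells and known for roles in repair of the mucosal surface. Gkn1 is a secreted gastrokine of the stomach surface, Lgals4 is a galectin of the gut lining, Agr2 is a disulfide isomerase of the endoplasmic reticulum needed to fold mucins, and Vsig1 is a junctional membrane protein of the gastric epithelium. Much of this program is known to appear in precursor lesions and in the classical subtype of pancreatic cancer.

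Between 22.5 M and 37.5 M reads per sample lay in nuclear peaks, and values are normalized counts per peak. At the start sites of 5 epithelial markers (Epcam, Krt8, Krt18, Krt19 and Cdh1), all with a peak, summed counts were 41467 to 42481 in Liv_OFF, 31678 to 40135 in Liv_ON, 18190 to 27348 in Lung_OFF, 21554 to 23951 in Lung_ON, 16377 to 19060 in Panc_OFF and 11359 to 15511 in Panc_ON. None of 5 leukocyte genes had a start-site peak, nor did Alb, Apoa1 and Cps1 of 5 hepatocyte genes, 4 of 5 lung epithelial genes (Sftpc among them) or 4 of 5 acinar genes (Ptf1a and Cpa1 among them). The other 2 hepatocyte genes summed to 1009 to 1172 in Liv_OFF, 719 to 1036 in Liv_ON and 233 to 608 elsewhere, and the acinar gene held 110 to 159 in the liver groups and 17.6 to 58.7 elsewhere. Fibroblast markers (4 of 5 with a peak) summed to between 464 and 1138 in the pancreas groups and between 96.5 and 432 elsewhere. Endothelial markers (5 of 5) reached 878 in 1 Lung_OFF sample and were between 151 and 320 in the other groups. These sums moved with organ, and their part in the differences below was not tested. A lower count in a bulk library cannot tell fewer cells with an open site from less opening per cell.

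The 51 peaks spanned 204 to 12514 bp, with a median of 732 bp, and their mean over the 16 samples lay between 11.8 and 4655. A mean of at least 20 was reached by 45 of them. There were 8 peaks within 1000 bp of a start site and 25 between genes, and 12 had the midpoint inside the gene itself. In mm10, Muc1 lies at chr3:89229057-89233381, Muc6 at chr7:141633456-141655319, Muc5ac at chr7:141788972-141819231, Lgals4 at chr7:28833854-28841708, Gkn1 at chr6:87345650-87350942, Agr2 at chr12:35992907-36004087 and Vsig1 at chrX:140907608-140939472. The trefoil genes are neighbors on the minus strand, with Tff3 at chr17:31125306-31129646, Tff2 at chr17:31141049-31144282 and Tff1 at chr17:31161395-31165277. Muc6 was the exception in having no peak over a start site, the closest midpoint lying 11.1 kb upstream. The Muc1 start-site peak, 12514 bp wide, also covers the start sites of Mtx1 and Mir92b, so its counts cannot be assigned to Muc1 alone. The midpoint of the other Muc1 peak, 4.6 kb upstream, lies within Mtx1 and Thbs3. The peak 8.8 kb upstream of Tff2 covers the start of the antisense RNA Gm15318, and the Muc6 peaks 27.7, 33.2 and 45 kb downstream lie within Ap2a2.

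Reference sequence is shown for start-site and distal peaks whose accessibility separated organs or Smad4 states, and for the Agr2 promoter as a contrast to its upstream peak. Each is 300 bases of GRCm38.p6 (mm10), plus strand, 5′ to 3′. Promoter windows are those of RefSeq, which were found for 6 of the 10 genes, and the others are the central 300 bases of a peak. Capitals mark a match to GGGNGTGG, a consensus bound by KLF factors, or to TGTTTNC, bound by FOXA factors, searched on both strands.
Lgals4 promoter (chr7:28833544-28833843): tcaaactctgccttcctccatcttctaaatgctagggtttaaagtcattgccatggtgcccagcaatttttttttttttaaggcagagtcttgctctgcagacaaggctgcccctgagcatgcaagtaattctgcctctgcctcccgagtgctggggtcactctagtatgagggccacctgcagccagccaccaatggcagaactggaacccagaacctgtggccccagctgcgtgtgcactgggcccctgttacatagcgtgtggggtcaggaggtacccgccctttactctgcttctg
Muc1 promoter (chr3:89228806-89229105): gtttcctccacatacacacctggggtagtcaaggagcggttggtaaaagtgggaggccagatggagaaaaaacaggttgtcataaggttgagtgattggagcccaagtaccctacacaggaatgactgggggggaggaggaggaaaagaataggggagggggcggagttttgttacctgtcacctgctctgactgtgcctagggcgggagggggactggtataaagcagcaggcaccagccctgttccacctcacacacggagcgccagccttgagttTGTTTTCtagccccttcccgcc
Agr2 promoter (chr12:35992675-35992974): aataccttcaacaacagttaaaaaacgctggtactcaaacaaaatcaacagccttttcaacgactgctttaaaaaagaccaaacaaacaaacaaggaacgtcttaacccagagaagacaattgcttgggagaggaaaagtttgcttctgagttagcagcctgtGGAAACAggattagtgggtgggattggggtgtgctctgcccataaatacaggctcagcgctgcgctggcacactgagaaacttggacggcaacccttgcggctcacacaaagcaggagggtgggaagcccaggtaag
Tff2 upstream peak, 8.8 kb from the start site (chr17:31152892-31153191): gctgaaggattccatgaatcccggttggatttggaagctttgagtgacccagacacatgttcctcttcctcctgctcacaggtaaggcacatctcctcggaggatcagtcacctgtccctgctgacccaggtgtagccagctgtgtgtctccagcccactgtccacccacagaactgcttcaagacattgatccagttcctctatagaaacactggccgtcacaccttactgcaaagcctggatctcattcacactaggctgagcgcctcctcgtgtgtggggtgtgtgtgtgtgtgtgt
Tff3 upstream peak, 4.8 kb from the start site (chr17:31134328-31134627): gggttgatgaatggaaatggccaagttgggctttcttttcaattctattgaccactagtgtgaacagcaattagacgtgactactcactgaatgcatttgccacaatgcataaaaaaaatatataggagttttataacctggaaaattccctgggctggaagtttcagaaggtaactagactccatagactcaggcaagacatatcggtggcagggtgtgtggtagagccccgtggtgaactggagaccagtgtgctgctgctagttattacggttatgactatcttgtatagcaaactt
Agr2 upstream peak, 10.9 kb from the start site (chr12:35981809-35982108): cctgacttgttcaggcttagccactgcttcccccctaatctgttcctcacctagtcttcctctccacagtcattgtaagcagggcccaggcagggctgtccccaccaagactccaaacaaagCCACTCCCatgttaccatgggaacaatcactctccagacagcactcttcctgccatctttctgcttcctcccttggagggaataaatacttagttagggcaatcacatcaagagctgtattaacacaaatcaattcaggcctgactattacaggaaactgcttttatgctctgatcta
Muc6 downstream peak, 45 kb from the start site (chr7:141610151-141610450): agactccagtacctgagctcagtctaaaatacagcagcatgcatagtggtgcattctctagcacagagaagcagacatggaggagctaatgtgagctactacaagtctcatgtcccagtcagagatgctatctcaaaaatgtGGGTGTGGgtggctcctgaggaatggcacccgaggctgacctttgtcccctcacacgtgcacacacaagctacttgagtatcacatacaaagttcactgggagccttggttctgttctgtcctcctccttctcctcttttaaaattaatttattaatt
The KLF consensus was in the windows of Agr2 (10.9 kb upstream) and Muc6 (45 kb downstream), and the FOXA consensus was in the promoters of Muc1 and Agr2. Of the 42 peaks wide enough for a 300-base window, 8 (19.0%) held the KLF consensus, against 11.2% of 116919 windows over all peaks. FOXA letters were in 6 (14.3%) against 27.5%, the AP-1 consensus TGANTCA in 8 (19.0%) against 33.5%, the RUNX consensus TGTGGTT in 6 (14.3%) against 10.8% and the GATA consensus AGATAA in 5 (11.9%) against 16.9%. No window of the 42 held CAAAGTCCA (HNF4), TTAATNATT (HNF1), CCGGAAGT (ETS) or GTCTAGAC (SMAD). Such matches describe letters in a window and not occupancy by a factor.

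Panc_ON had the lowest mean of the 6 groups at 35 of the 51 peaks, a position it held at 25.4% of all peaks. It had the highest mean at 0 of the 51, against 27.4% of all peaks. Liv_OFF was highest at 28 of the 51, against 29.6% of all peaks. Lung_ON followed at 10, against 10.4% of all peaks, and Lung_OFF at 9, against 11.5%. The start-site peaks of all 10 genes had a lower mean in Panc_ON than in Panc_OFF. Among them, those of Tff2, Lgals4 and Muc1 alone were lower by the thresholds given below. The share of all start-site peaks with a lower mean was not counted. The orders of groups at the 10 start-site peaks differed. Liv_OFF was highest at Muc1, Muc5ac, Muc6, Tff2, Tff3 and Lgals4, Lung_ON at Tff1 and Vsig1, and Lung_OFF at Gkn1 and Agr2.

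**Figure D1:**
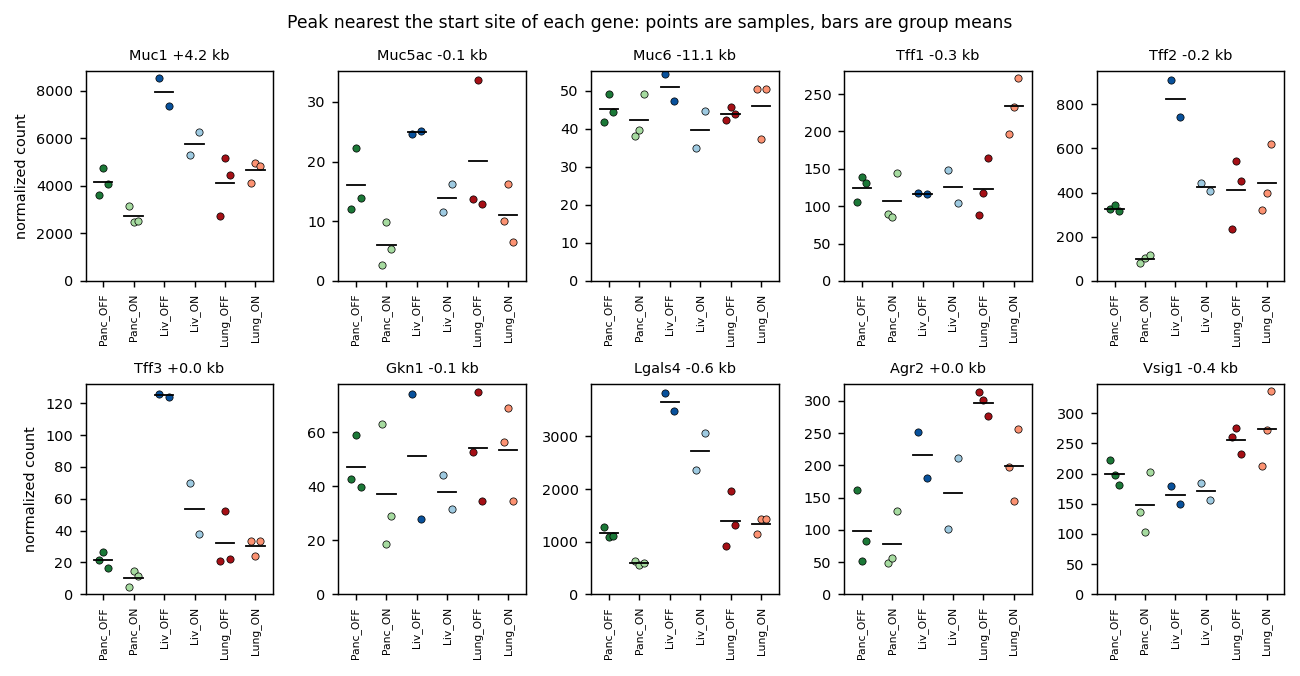
Normalized count (vertical axis, from 0) at the start-site peak of each gene, with the 6 groups on the horizontal axis, points for the 16 samples and bars for group means. Liv_OFF stands highest at Muc1, Tff2, Tff3 and Lgals4, and Panc_ON has a lower mean than Panc_OFF in each panel.

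With Smad4 off, the liver and lung metastases differed at peaks of Lgals4, Tff2, Tff3 and Muc1, whose called peaks were all higher in the liver. The peaks more open in the lungs were 3 of Agr2, 2 each of Vsig1 and Muc5ac, and 1 each of Muc6 and Tff1. Agr2 (1 peak), Muc5ac (1), Muc6 (2) and Gkn1 (1) also had peaks more open in the liver. A peak was called when its log2 fold change was 0.58 or more in size and its adjusted p was 0.1 or less (limma, Benjamini-Hochberg over all nuclear peaks). Of the 51 peaks, 28 were called between Liv_OFF and Lung_OFF, 19 of them higher in the liver and 9 lower, where 49.7% of all peaks were called (22.9% higher and 26.8% lower). The total is thus near the background share, and more of the calls were on the side of the liver. The median of the 51 log2 fold changes was 0.36, against 0.00 over all peaks. The same 28 and 19 were counted by edgeR and by DESeq2, and 15 of the 28 calls were kept in every alternative run. Peaks over 100 kb and up to 2 Mb away also moved in this comparison, at Agr2 toward the lungs. Their median log2 fold changes were 0.31 around Muc1, 0.40 around Muc5ac, 0.39 around Muc6 and 0.38 around Lgals4. They were 0.20 around the trefoil cluster, 0.14 around Gkn1, -0.06 around Vsig1 and -0.79 around Agr2.

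Lgals4, the galectin of the gut lining, had 4 of 5 peaks called higher in the liver. Its start-site peak (midpoint 0.56 kb upstream, chr7:28830731-28835858) had normalized counts of 3833 and 3490 in Liv_OFF and of 916, 1956 and 1317 in Lung_OFF. Both liver samples lay above the 3 lung samples, among which replicate 2 was high. The log2 fold change was 1.46 (SE 0.21, adjusted p = 0.000121, limma). The peak 4.0 kb downstream, in an intron, held 1498 and 1640 in Liv_OFF and 475, 765 and 576 in Lung_OFF, again without overlap (log2 fold change 1.40, SE 0.20, adjusted p = 0.000119). Peaks 8.0 and 14.6 kb downstream were also called, by 1.56 and 1.99, whereas the 205-bp peak 3.9 kb upstream differed by 0.01 (SE 0.37). These 4 calls at Lgals4 were kept in all 27 alternatives.

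In the trefoil cluster, Tff2 and Tff3 were more open in the liver, and no Tff1 peak was called higher there. The Tff2 start-site peak held 910 and 740 in Liv_OFF and 236, 544 and 453 in Lung_OFF, a log2 fold change of 1.08 (SE 0.30, adjusted p = 0.00858). At the peak 8.8 kb upstream, inside Gm15318, counts were 523 and 465 in Liv_OFF and 102, 259 and 196 in Lung_OFF. The liver samples were the higher at both, and the upstream difference was 1.51 (SE 0.30, adjusted p = 0.000923). All 4 peaks of Tff2 were called higher in the liver, although the one 1.7 kb downstream was lost without Liv_OFF replicate 1 (adjusted p = 0.210), without Lung_OFF replicate 1 (0.144) or with a correction for GC content (0.109).

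Tff3 had 4 of 5 peaks called higher in the liver. Its start-site peak was nearly closed in the lungs, with 21.2, 52.2 and 22.4, and held 126 and 124 in Liv_OFF (log2 fold change 2.06, SE 0.48, adjusted p = 0.00285). The peak 4.8 kb upstream held 937 and 829 in Liv_OFF and 287, 529 and 492 in Lung_OFF, a difference of 1.06 (SE 0.21, adjusted p = 0.000780). Neither pair of groups overlapped. At the Tff1 start-site peak, by contrast, 118 and 116 in Liv_OFF fell within the 88.4, 118 and 164 of Lung_OFF, and the difference was -0.03 (SE 0.30, adjusted p = 0.938). The peak 2.7 kb downstream of the Tff1 start site was lower in the liver, with 525 and 722 against 995, 1066 and 1354 (log2 fold change -0.87, SE 0.25, adjusted p = 0.00870). That call was lost without Liv_OFF replicate 1 (-0.64, adjusted p = 0.120).

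**Figure D2:**
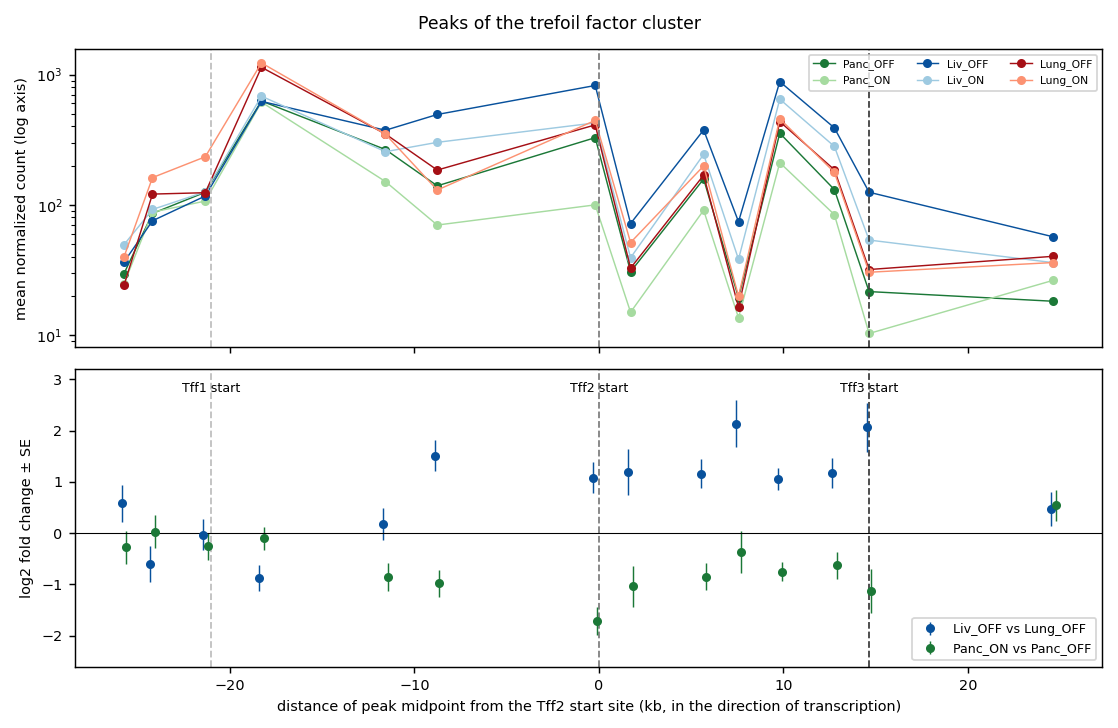
Peaks of the trefoil cluster by distance of the midpoint from the Tff2 start site (kb, in the direction of transcription), with group mean normalized counts on a log axis above and log2 fold changes with SE for Liv_OFF against Lung_OFF and for Panc_ON against Panc_OFF below. Tff2 and Tff3 peaks lie above 0 in the organ comparison and mostly below 0 for restoration in the pancreas, and the Tff1 peaks scatter around 0.

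Among the mucins, both peaks of membrane-bound Muc1 were called higher in the liver, and the secreted Muc5ac and Muc6 were mixed. Both Muc1 peaks also lie at other genes, as given above, so neither can be assigned to Muc1 alone. The Muc1 start-site peak held 8550 and 7381 in Liv_OFF and 2729, 5172 and 4473 in Lung_OFF, without overlap (log2 fold change 1.00, SE 0.20, adjusted p = 0.000860). Quantile normalization lowered the difference to 0.55, under the threshold of 0.58. The small peak 4.6 kb upstream held 19.7 and 44.6 against 5.52, 9.78 and 6.03, a difference of 1.96 (SE 0.55, adjusted p = 0.00883), lost without Liv_OFF replicate 2 (1.39, adjusted p = 0.131).

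At Muc5ac, the gel-forming mucin of the gastric surface, the start-site peak was small and variable, with 24.7 and 25.1 in Liv_OFF and 13.8, 33.7 and 12.9 in Lung_OFF. The groups overlapped, and the difference was 0.43 (SE 0.56, adjusted p = 0.549). The intronic peak 24.6 kb downstream was lower in the liver, with 12.3 and 19.5 against 56.1, 42.4 and 36.2 (log2 fold change -1.45, SE 0.48, adjusted p = 0.0202), and was lost without Liv_OFF replicate 1 (-1.14, adjusted p = 0.158) or under quantile normalization (-1.16, adjusted p = 0.107). The peak 17.9 kb upstream was higher in the liver by 1.10 (SE 0.49, adjusted p = 0.0744), a call lost without either Liv_OFF sample or without Lung_OFF replicate 1 or 3 (adjusted p = 0.115 to 0.323), with GC correction (0.242) and with the replicate number as a block (0.126). Another call, at a small intergenic peak 2.8 kb upstream, was lower in the liver, with 4.94 and 5.57 against 36.8, 23.9 and 12.1 (-1.89, SE 0.85, adjusted p = 0.0751), and was lost without either Liv_OFF sample or without Lung_OFF replicate 1 or 2 (up to 0.216).

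Muc6, the gastric gland mucin, had no accessible start site and 3 of 5 peaks called. The peak closest to its start, 11.1 kb upstream, held 54.3 and 47.4 in Liv_OFF and 42.3, 45.6 and 43.9 in Lung_OFF, a difference of 0.20 (SE 0.28, adjusted p = 0.565). At 45 kb downstream, within Ap2a2, counts of 93.8 and 90.6 stood against 20.3, 47.8 and 24.1 (log2 fold change 1.65, SE 0.44, adjusted p = 0.00659). A second peak in Ap2a2, 27.7 kb downstream, went the other way, by -1.21 (SE 0.39, adjusted p = 0.0194), and was lost without Liv_OFF replicate 2 (adjusted p = 0.113). The peak 15.9 kb upstream was higher in the liver by 1.18 (SE 0.33, adjusted p = 0.00919).

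Gkn1 and Vsig1, a pair of genes of the gastric surface epithelium, had no start-site peak called higher in the liver. The Gkn1 start-site peak held 74.1 and 27.9 in Liv_OFF and 52.5, 75.0 and 34.5 in Lung_OFF, fully overlapping (log2 fold change -0.17, SE 0.51, adjusted p = 0.797). Its peak 3.7 kb upstream held 144 and 92.0 against 51.5, 107 and 60.3, groups that overlapped, with a difference of 0.73 (SE 0.34, adjusted p = 0.0862). This call was lost in 10 of 27 alternatives, among them without Liv_OFF replicate 1 (0.40, adjusted p = 0.482), Lung_OFF replicate 1 (0.256), Lung_OFF replicate 3 (0.190) or Panc_OFF replicate 2 (0.101) and with the replicate block (0.138).

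The Vsig1 start-site peak held 180 and 149 in Liv_OFF and 260, 275 and 233 in Lung_OFF. The liver was lower by 0.64 on the log2 scale (-0.64, SE 0.26, adjusted p = 0.0539), a call lost without Liv_OFF replicate 2 (adjusted p = 0.262) or Lung_OFF replicate 2 (0.103), after GC correction (-0.38, adjusted p = 0.239) and with the replicate block (-0.57, under the threshold). The intergenic peak 21.9 kb upstream showed the strongest opening in the lungs of the 51, with 84.7, 48.9 and 77.5 in Lung_OFF and 16 and 9.75 in Liv_OFF. The groups lay far apart, and the difference of -2.36 (SE 0.41, adjusted p = 0.000350) was kept in all 27 alternatives.

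Agr2, the mucin-folding isomerase, had called peaks in both directions between liver and lungs, with 1 of 14 higher in the liver and 3 lower. Its start-site peak held 252 and 181 in Liv_OFF and 313, 302 and 277 in Lung_OFF. The lung samples were the higher, but the difference did not reach the threshold (-0.47, SE 0.46, adjusted p = 0.406). The intronic peak 9.5 kb downstream held 178 and 118 against 332, 339 and 416 (log2 fold change -1.31, SE 0.26, adjusted p = 0.000870), and the intronic peak 4.7 kb downstream was also lower in the liver by -0.89 (adjusted p = 0.00986), lost without Liv_OFF replicate 1 (0.124). Farther out, 26.4 kb upstream, the liver was higher, with 397 and 394 against 125, 300 and 257 (0.89, SE 0.33, adjusted p = 0.0370). That call was lost without either Liv_OFF sample (0.134 and 0.130) or without Lung_OFF replicate 1, when the difference fell to 0.51 (adjusted p = 0.167). The peak 18.9 kb upstream was lower in the liver (-1.36, SE 0.46, adjusted p = 0.0238), a call lost without Liv_OFF replicate 1 (0.249).

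**Figure D3:**
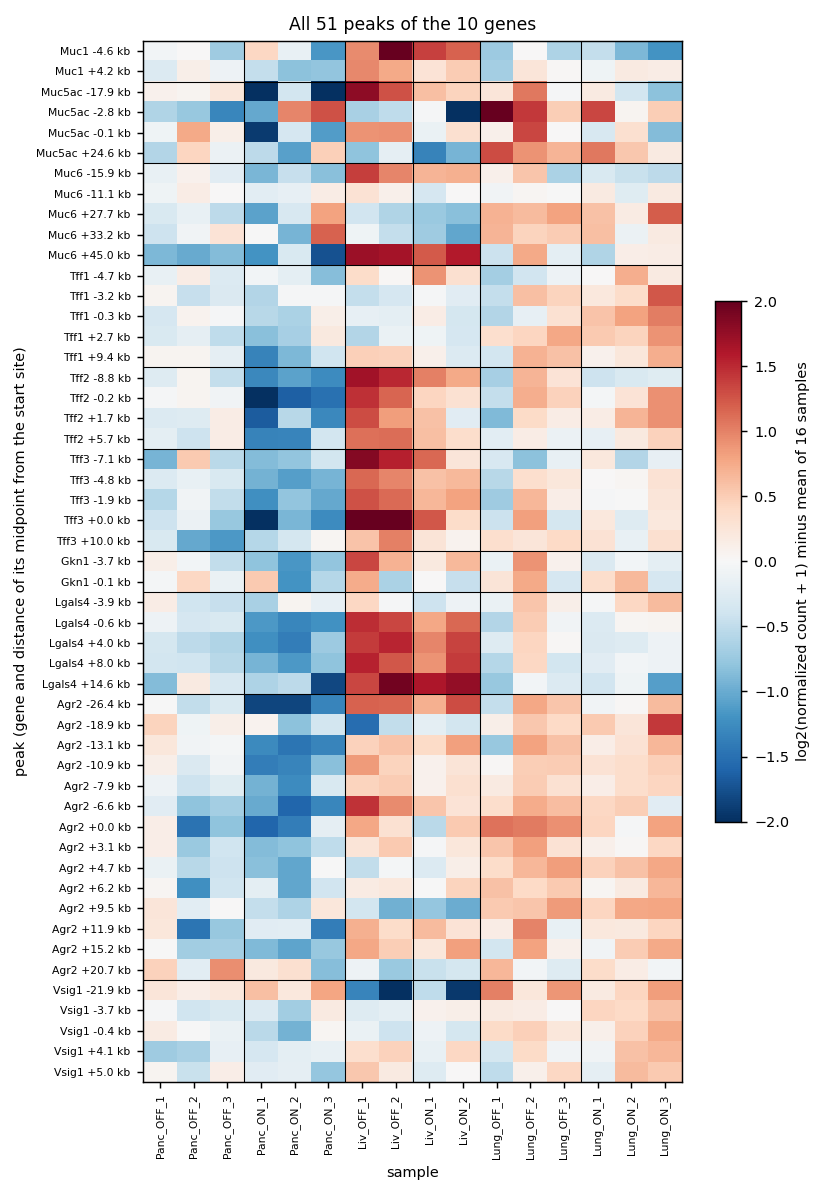
Log2 normalized count of the 51 peaks in the 16 samples, each peak minus its mean over samples (color), with peaks in rows by gene and samples in columns by group. The Liv_OFF and Liv_ON columns are above the mean at most Tff2, Tff3 and Lgals4 peaks, and the Panc_ON columns are below the mean at most peaks of Tff2, Tff3, Lgals4 and Agr2.

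Against tumors in the pancreas with Smad4 off, which serve as the common reference for the liver and the lungs here, the liver was more open at 28 peaks and less open at 3. This was 31 of 51 called, where 58.5% of all peaks were called (26.2% higher and 32.3% lower). The median of the 51 log2 fold changes was 0.73, against -0.05 over all peaks. Peaks over 100 kb and up to 2 Mb away had medians of 0.42 around Lgals4, 0.38 around Muc5ac and Muc6 and 0.28 around Muc1. Around the trefoil genes these were 0.23 to 0.24, around Gkn1 -0.05, around Vsig1 -0.17 and around Agr2 -0.89. All 5 Tff3 peaks, all 4 Tff2 peaks and 4 of 5 Lgals4 peaks were called higher. The Lgals4 start-site peak held 1284, 1094 and 1114 in Panc_OFF, well under the Liv_OFF samples (log2 fold change 1.65, SE 0.21, adjusted p = 2.71e-05). The Muc6 peak in Ap2a2, 45 kb downstream, held 14.5, 13.4 and 14.8 in Panc_OFF and differed by 2.61 (SE 0.44, adjusted p = 0.000191). Of 14 Agr2 peaks, 8 were called higher and 2 lower, and in this comparison the start-site peak was among the higher ones (1.26, SE 0.46, adjusted p = 0.0267), though not without Panc_OFF replicate 2 or Liv_OFF replicate 1 (adjusted p up to 0.174).

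Lung metastases were compared with the same Panc_OFF samples, and 11 peaks were called, all higher in the lungs. The background was 17.3% of all peaks, 6.59% higher and 10.7% lower, and the median log2 fold change was 0.41 against 0.03. Agr2 contributed 7 of the 11 calls. Its start-site peak held 161, 51.8 and 83.3 in Panc_OFF, below the 3 Lung_OFF samples, and differed by 1.73 (SE 0.41, adjusted p = 0.0118), the call among the 11 that was kept in all 27 alternatives. The peak 2.7 kb downstream of Tff1 held 637, 693 and 551 in Panc_OFF and was higher in the lungs by 0.85 (SE 0.22, adjusted p = 0.0189). At an unadjusted p under 0.05 (27.5% of all peaks), 16 peaks were higher and 0 lower, and edgeR called 12 and DESeq2 13, with 0 lower. At the Tff2 start-site peak the difference was 0.24 (SE 0.27, adjusted p = 0.610). The count rested on single samples: it was 3 without Panc_OFF replicate 3, 4 without Panc_OFF replicate 2, 6 without Lung_OFF replicate 2, 7 without Lung_OFF replicate 3 and 20 without Lung_OFF replicate 1.

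With Smad4 restored, liver and lung samples differed at 4 of 5 Lgals4 peaks, calls kept in all 27 alternatives, while no difference was called at the start-site peaks of Tff2 (-0.01, SE 0.30, adjusted p = 0.988) and Tff3 (0.75, SE 0.48, adjusted p = 0.248). The comparison of Liv_ON with Lung_ON gave 18 calls (35.3%), 9 higher and 9 lower, where 35.8% of all peaks were called (17.6% higher and 18.2% lower). The total is thus near the background share, with as many calls higher as lower. The median of the 51 log2 fold changes was -0.07, against -0.01 over all peaks. The peak 8.8 kb upstream of Tff2 was among the higher ones (1.21, SE 0.30, adjusted p = 0.00669). Among the lower ones, the peaks 9.5 kb downstream of Agr2 (-1.55) and 24.6 kb downstream of Muc5ac (-1.72) were kept in all 27 alternatives. The Lgals4 start-site peak held 2362 and 3066 in Liv_ON and 1143, 1422 and 1438 in Lung_ON (log2 fold change 1.02, SE 0.21, adjusted p = 0.00245). The Tff1 start-site peak was lower in the liver, with 148 and 104 against 197, 233 and 272 (-0.90, SE 0.30, adjusted p = 0.0296), a call lost without Liv_ON replicate 2 (adjusted p = 0.302). At Vsig1, the peak 21.9 kb upstream held 29.1 and 10.2 in Liv_ON and 47.2, 56.6 and 74.7 in Lung_ON (-1.70, SE 0.41, adjusted p = 0.00551), and was not called without Liv_ON replicate 2 (-0.98, adjusted p = 0.175). The Vsig1 start-site peak (-0.66, SE 0.26, adjusted p = 0.0631) was lost in 7 of 27 alternatives, among them without Liv_ON replicate 2 (0.342) or Lung_ON replicate 2 (0.120) or 3 (0.197), with GC correction (0.182) and with the replicate block (-0.59, adjusted p = 0.108). Without Liv_ON replicate 2, 8 of the 51 peaks were called. A call with Smad4 off and none with Smad4 restored does not show that the organ difference changed, which is tested below.

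Against Panc_ON, both metastatic sites were more open over most of the 51 peaks. Liv_ON was called higher at 30 peaks and lower at 3, where 59.4% of all peaks were called (27.1% higher and 32.2% lower), and the median log2 fold change was 1.05 against -0.08. Lung_ON was called higher at 33 peaks and lower at 0, where 27.8% of all peaks were called (12.8% higher and 14.9% lower), with a median of 0.90 against 0.00. By edgeR, 29 peaks were higher in Lung_ON and 0 lower, by DESeq2 31 and 0, and at an unadjusted p under 0.05 by limma (35.7% of all peaks) 34 and 0. The median over all peaks in this comparison moved by 0.11 under quantile normalization. Both comparisons share the Panc_ON samples, so the values are given side by side. The Tff2 start-site peak held 80.0, 105 and 116 in Panc_ON, 444 and 408 in Liv_ON and 319, 397 and 619 in Lung_ON, and the differences were 2.09 (SE 0.30, adjusted p = 5.95e-05) and 2.10 (SE 0.27, adjusted p = 0.000366). At the Tff1 start-site peak, Lung_ON exceeded Panc_ON by 1.15 (SE 0.27, adjusted p = 0.00569), and 12 of 14 Agr2 peaks were called higher.

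Restoration of Smad4 in the pancreas was followed by lower accessibility at Tff2, Lgals4, Agr2 and single peaks of Muc1, Muc5ac and Tff3, and no peak of the 51 was called higher. There were 10 calls, where 3.42% of all peaks were called and 3.06% were called lower. The median log2 fold change was -0.49, against 0.04 over all peaks. By edgeR 8 peaks were called and by DESeq2 12, all lower and none higher, and at an unadjusted p under 0.05 there were 21 (16.9% of all peaks), of which 0 were higher. The samples of the pair of groups did not overlap at 20 peaks, each lower in Panc_ON, where 13.3% of all peaks were separated in that direction. The summed epithelial markers were lower in Panc_ON as well (11359 to 15511, against 16377 to 19060), and their part was not tested. Peaks 100 kb to 2 Mb from the 10 genes had medians between -0.12 and 0.19.

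The Tff2 start-site peak was called lower in all 27 alternatives. Its counts were 325, 343 and 315 in Panc_OFF and 80.0, 105 and 116 in Panc_ON. The groups were far apart and tight, and the log2 fold change was -1.71 (SE 0.27, adjusted p = 0.0109). The peak 8.8 kb upstream held 136, 169 and 116 against 65.8, 76.8 and 67.4 (-0.98, SE 0.27, adjusted p = 0.0751). The Tff3 peak 4.8 kb upstream held 347, 379 and 341 against 218, 196 and 221 (-0.75, SE 0.18, adjusted p = 0.050). These last 2 calls were lost without any 1 of several samples, up to an adjusted p of 0.295 and 0.212 without Panc_OFF replicate 2. The Tff3 start-site peak held 21.4, 26.8 and 16.7 against 4.44, 14.9 and 11.5, a difference of -1.12 that was not called (SE 0.43, adjusted p = 0.202). The Tff1 start-site peak, with 105, 139 and 131 against 89.8, 85.4 and 145, overlapped between the groups (-0.26, SE 0.27, adjusted p = 0.659).

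Agr2 was called lower at 3 of its 6 upstream peaks, and no difference was called at its start site. At 10.9 kb upstream, counts were 249, 188 and 219 in Panc_OFF and 88.0, 91.6 and 128 in Panc_ON (log2 fold change -1.10, SE 0.20, adjusted p = 0.0173), a call kept in all 27 alternatives. At 13.1 kb upstream they were 243, 197 and 202 against 85.3, 74.3 and 82.0 (-1.39, SE 0.30, adjusted p = 0.0320), and at 26.4 kb upstream 173, 124 and 142 against 48.0, 48.3 and 69.7 (-1.40, SE 0.30, adjusted p = 0.0306). All 3 separated the groups, although the latter 2 were lost without Panc_OFF replicate 1 (adjusted p = 0.124 for both), Panc_OFF replicate 2 (0.124 and 0.107) or Panc_ON replicate 2 (0.103 for both), and the last also without Panc_ON replicate 1 (0.105). The Agr2 start-site peak held 161, 51.8 and 83.3 against 48.0, 55.7 and 129, which overlapped (-0.33, SE 0.41, adjusted p = 0.720). None of the 7 peaks downstream of the start site was called.

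At Lgals4, the start-site peak fell from 1284, 1094 and 1114 to 624, 558 and 598, without overlap. The log2 fold change was -0.97 (SE 0.19, adjusted p = 0.0217), and the call was kept when any single sample was left out (adjusted p up to 0.0988). The peak 4.0 kb downstream was at the edge of the thresholds (-0.62, SE 0.18, adjusted p = 0.0969) and was lost in 18 of 27 alternatives, edgeR among them (adjusted p = 0.114) and 12 of the 16 fits without 1 sample (up to 0.268 without Panc_ON replicate 2). The Muc1 start-site peak held 3639, 4772 and 4100 against 3139, 2482 and 2529 (-0.62, SE 0.17, adjusted p = 0.0845), a call lost in 14 of 27 alternatives, among them without any 1 of the 6 pancreas samples (adjusted p = 0.110 to 0.319) and with GC correction (-0.44, adjusted p = 0.120). The Muc5ac peak 17.9 kb upstream held 41.0, 40.2 and 45.4 against 7.11, 29.7 and 8.43 (-1.70, SE 0.44, adjusted p = 0.0629), lost without any 1 of these samples other than Panc_ON replicate 2 (adjusted p = 0.140 to 0.200), with GC correction (0.107) and by edgeR (0.112). By limma, no peak of Muc6, Tff1, Gkn1 or Vsig1 was called. The Tff1 peak 9.4 kb downstream was called lower by DESeq2 (-0.81, adjusted p = 0.0679), with the replicate block (-0.86, adjusted p = 0.0820) and under quantile normalization (-0.97, adjusted p = 0.0745), and without Panc_ON replicate 3 (-1.10, adjusted p = 0.0557) or Lung_OFF replicate 1 (0.0387) or 2 (0.0925). The Vsig1 start-site peak was called lower without Panc_ON replicate 3 (-0.75, adjusted p = 0.0939).

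The count of 10 was 3 without Panc_OFF replicate 1 or 2, 4 without Panc_ON replicate 1 or 2, 5 without Panc_OFF replicate 3 and 13 without Lung_OFF replicate 1, which enters only through the shared estimate of the spread.

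**Figure D4:**
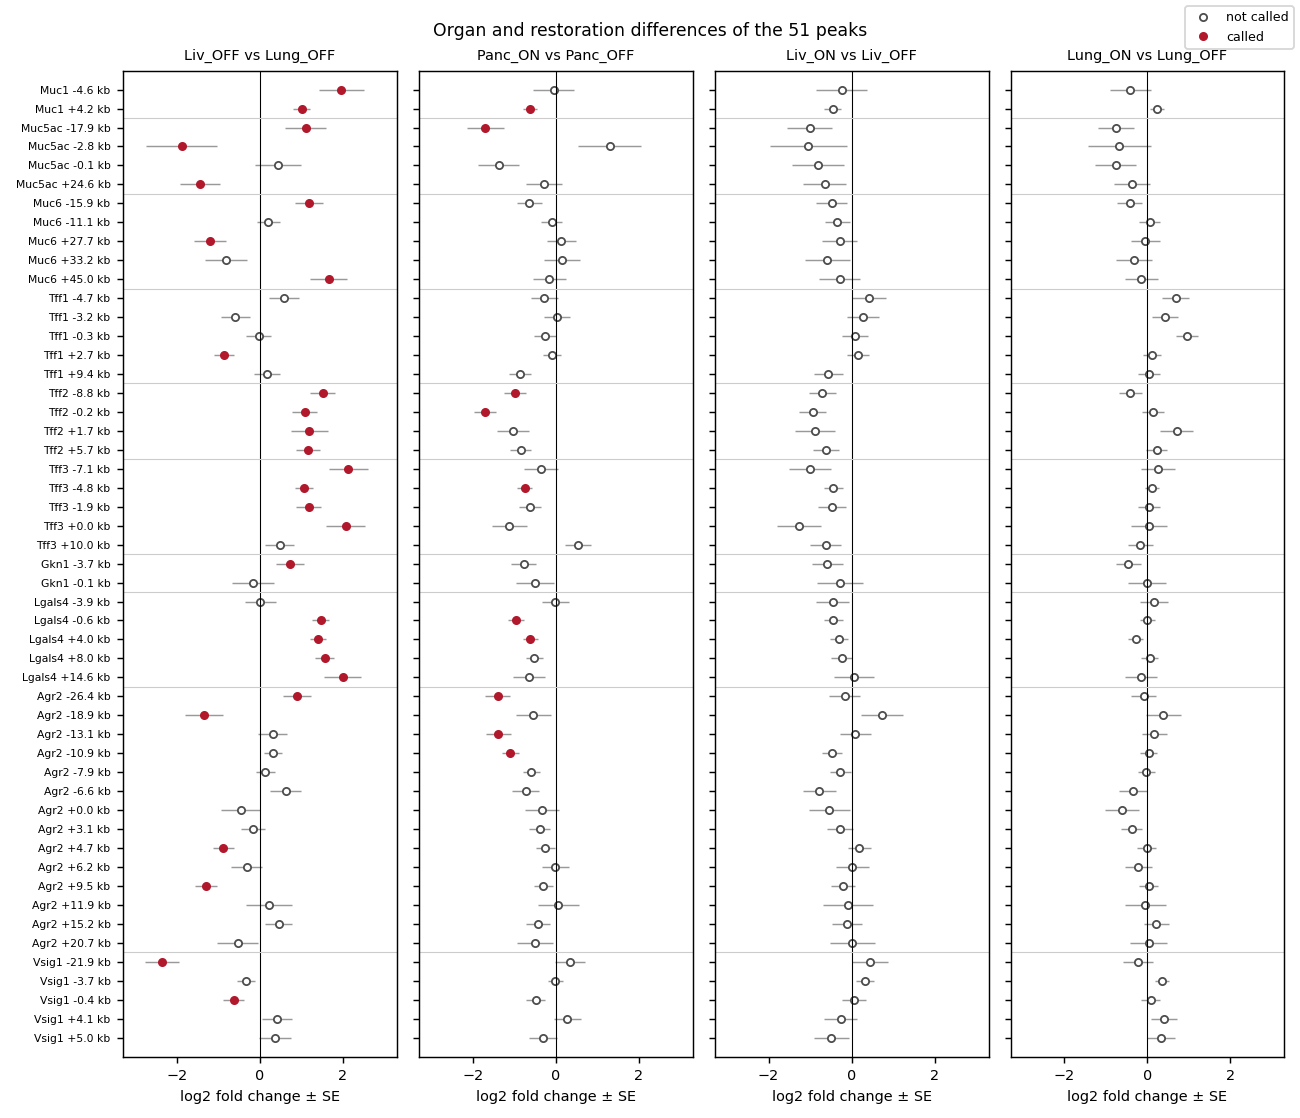
Log2 fold changes with SE (horizontal axis) of the 51 peaks (vertical axis, by gene) for Liv_OFF against Lung_OFF and for restoration in the pancreas, liver and lungs, with called peaks filled. Filled points lie on both sides of 0 for the organ comparison and below 0 for the pancreas, and the liver and lung restoration panels have none.

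In the liver, mean counts after restoration were lower at the start-site peaks of all genes other than Tff1 and Vsig1. No peak of the 51 was called by limma, edgeR or DESeq2 (limma called 0.550% of all peaks, 0.462% higher and 0.0886% lower). At an unadjusted p under 0.05 (12.1% of all peaks) there were 4 peaks, all lower in Liv_ON: the start-site peaks of Muc1, Tff2 and Tff3 and the peak 8.8 kb upstream of Tff2. The Tff2 start-site peak held 910 and 740 in Liv_OFF and 444 and 408 in Liv_ON, and the difference was -0.94 (SE 0.33, adjusted p = 0.254). The Muc1 start-site peak held 8550 and 7381 against 5297 and 6264 (-0.46, SE 0.21, adjusted p = 0.399). Neither pair overlapped. Of the 51 peaks, 28 were lower without overlap and 3 higher, where 22.9% and 21.6% of all peaks were so separated, and the median log2 fold change was -0.30 against 0.02.

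In the lungs, the largest change relative to its error was at Tff1. No peak was called by limma or edgeR (limma called 0.00366% of all peaks, 0.00146% higher and 0.00220% lower), 1 had an unadjusted p under 0.05 (7.11% of all peaks), and the median log2 fold change was 0.03. That was the Tff1 start-site peak, with 88.4, 118 and 164 in Lung_OFF and 197, 233 and 272 in Lung_ON. The groups did not overlap, and the difference of 0.95 (SE 0.27, adjusted p = 0.407 by limma) was called by DESeq2 alone. The Tff2 start-site peak held 236, 544 and 453 against 319, 397 and 619 (0.14, SE 0.27, adjusted p = 0.969), and the Lgals4 start-site peak 916, 1956 and 1317 against 1143, 1422 and 1438 (-0.00, SE 0.19, adjusted p = 1.000). Lung_OFF replicate 1 was low and replicate 2 high at both.

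Averaged over the 3 organs, 7 peaks were called lower with Smad4 restored and 0 higher, where 6.62% of all peaks were called (3.61% higher and 3.0% lower). By edgeR and by DESeq2, 7 were called, with 0 higher, and at an unadjusted p under 0.05 (22.5% of all peaks) limma gave 18 lower and 0 higher. The median log2 fold change was -0.25 against 0.01. A call on this average does not show a lower value in each organ. By organ, the 51 peaks had medians of -0.49 (pancreas), -0.30 (liver) and 0.03 (lungs), with 43, 38 and 25 negative. At the Tff2 start-site peak, OFF and ON means were 328 and 100 (pancreas), 825 and 426 (liver) and 411 and 445 (lungs). The calls were the Tff2 start-site peak (-0.84, SE 0.17, adjusted p = 0.0135) and upstream peak (-0.70, SE 0.17, adjusted p = 0.0256), the Muc5ac peak 17.9 kb upstream (-1.16, SE 0.28, adjusted p = 0.0260) and start-site peak (-0.99, SE 0.31, adjusted p = 0.0755), the Gkn1 peak 3.7 kb upstream (-0.61, SE 0.19, adjusted p = 0.0698), the Agr2 peak 6.6 kb upstream and the Tff3 start-site peak. The last 2 and the Muc5ac start-site peak were lost in 9 to 12 of the 16 fits that left out 1 sample, and the Gkn1 peak in 7. With the replicate block the Agr2 and Tff3 peaks were not called. The count was 3 without Panc_OFF replicate 2, Liv_OFF replicate 1, Liv_ON replicate 1, Lung_OFF replicate 2 or Lung_ON replicate 1, and 4 without Panc_OFF replicate 1 or 3. The Muc5ac start-site peak is shallow, with values down to 2.67, and its fold change on the log2(count + 1) scale is understated.

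Whether restoration acted differently between organs was tested directly. No peak was called for liver against lungs, liver against pancreas or lungs against pancreas, where 0% of all peaks were called, and limma gave 3, 3 and 11 peaks at an unadjusted p under 0.05 (5.25%, 3.95% and 11.0% of all peaks). For edgeR the counts were 0 in each, and for DESeq2 0, 0 and 3. The 11 were all more positive in the lungs, at Tff1, Tff2, Tff3, Agr2, Lgals4 and Muc1. The largest belonged to the Tff2 start-site peak, for which restoration gave -1.71 in the pancreas and 0.14 in the lungs, a difference of 1.86 (SE 0.38, adjusted p = 0.231). Deviations of same-numbered lung samples correlated at 0.491, 0.124 and 0.214. A replicate block for the lung samples alone was chosen after these values were seen, and no label pairs the samples. Calls from it are thus not independent support. That fit called 6 peaks for lungs against pancreas, all higher, where 1.75% of all peaks were called. These were the start-site peaks of Tff2 (1.86, adjusted p = 0.0205), Muc1 and Lgals4, the Tff3 peak 4.8 kb upstream and the Agr2 peaks 10.9 and 13.1 kb upstream. With a block in every organ there was 1, and without Lung_OFF replicate 2 there were 8. The 3 calls by DESeq2, on the design without a block, were the Tff2 start-site peak (adjusted p = 0.00577) and the Agr2 peaks 10.9 kb (0.0244) and 13.1 kb (0.0666) upstream. Whether any peak was called thus depended on the test and on how the lung samples were handled.

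Other genes of the same pathways were counted beside the share of all peaks called between Liv_OFF and Lung_OFF, 49.7% in all, 22.9% higher and 26.8% lower. Of 123 peaks of 13 other classical pancreatic cancer genes, 45 were called higher in Liv_OFF than in Lung_OFF and 24 lower, and the median of their log2 fold changes was 0.50. At the peak closest to the start site, called differences ranged from Pla2g10, a secreted phospholipase (2.40), and Clrn3 and Myo1a (1.53 each) down to Krt20, an intestinal keratin (1.01), and Reg4, a secreted lectin (-0.89). Of 50 peaks of 9 other mucin and gastrokine genes, 30 were higher and 5 lower, with a median of 1.19. The membrane mucins Muc3a (2.38, at a distal peak 18435 bp from its start site) and Muc4 (2.01) led. Muc13, also a membrane mucin, was lower (-1.08), and Muc3 and the gastrokine Gkn3 were each higher by 0.99. Of 95 peaks of 11 genes for mucin glycosylation and secretory differentiation, 32 were higher and 20 lower, with a median of 0.09. The glycosyltransferase genes Gcnt3 (1.82) and Fut2 (1.79) led. The lowest called were B3gnt6 (1.30, at a peak 3834 bp from its start site) and Galnt3 (1.03).

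For restoration in the pancreas, where 3.42% of all peaks were called and 3.06% lower, limma called 12 of the 123 classical peaks lower and 1 higher (10.6% called). It called 8 of the 50 mucin and gastrokine peaks lower and 0 higher (16%), and 7 of the 95 glycosylation and secretory peaks lower and 0 higher (7.37%). In the liver and in the lungs, 0 peaks of these lists were called by limma. The genes were chosen for their known roles, and several neighbor the 10 genes, such as Muc2 and Muc5b beside Muc5ac.

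For each start-site peak, the most similar start-site peak elsewhere was found by Pearson's r over the 16 samples of log2(count + 1), among 12889 candidates with a mean of at least 20 and over 1 Mb away. It was Slc13a2 for Muc1 (r = 0.99), Gngt2 for Lgals4 (0.99), Lbp for Tff2 (0.98), Lpgat1 for Tff3 (0.95), Adgrg2 for Vsig1 (0.91), Vwa3b for Agr2 (0.90), Sema6b for Tff1 (0.88) and Lrfn2 for Muc5ac (0.87). Muc6 (Msh5, 0.69) and Gkn1 (Cybrd1, 0.71) had no close match. Samples share organ and Smad4 state, so these r values describe likeness of pattern over 6 groups. The match to Lgals4, Gngt2, had mean normalized counts of 1889 in Liv_OFF, 1413 in Liv_ON, 625 in Lung_OFF, 567 in Lung_ON, 497 in Panc_OFF and 238 in Panc_ON, the same order of groups as Lgals4.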

How the data were processed

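Chromatin accessibility was measured by ATAC-seq, which tags open DNA with a transposase, in 16 samples of 6 groups named by the sample titles. As the methods state, trimGalore and cutadapt were used by the authors for trimming, Bowtie2 for alignment to the mm10 genome and MACS2 for peak calling (p of at most 0.001). They dropped blacklisted regions, merged peaks within 500 bp over all samples and counted reads with featureCounts. The deposited values are a signal, the normalized count per peak after DESeq2 size factors, and whole reads could be recovered from 100% of values within 0.01. Transposase shift and duplicate removal are not given in the sources used here. PCR duplicates, if kept, inflate the apparent precision of a count. Column names of the table give Dox status, and Dox on was read as Smad4 off. Lung column names give day 15, where the text of the study gives 14 days. The sample titles give no day.

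The mitochondrial row (1.43% to 3.56% of reads) was left out. Genes came from GENCODE vM21 basic. limma 3.58.1 in R 4.3.3 (trend, robust) was fitted to log2(normalized count + 1) of all peaks with 6 group means. Fold changes on that scale understate low peaks. The 10 genes, the lists and the tests were chosen with earlier results of these data known. Named peaks are the start-site peak of each gene, its called peak of smallest p between Liv_OFF and Lung_OFF and its called peak of smallest p for restoration, and others were named after their values were seen. In the lists, the 2 highest and 2 lowest called start-site peaks between Liv_OFF and Lung_OFF are named by rule.

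Alternatives were a pseudocount of 10, a mean of at least 20, TMM factors, quantile normalization, edgeR 4.0.16 and DESeq2 1.42.0 run on whole reads, stricter thresholds (1 and 0.05), only the groups compared, replicate blocks, a GC correction, both together, a window of 50 kb and leaving out each sample. Deviations of same-numbered OFF and ON samples correlated at 0.491, 0.124 and 0.214 in the lungs, so a fit with a block for the lung samples was run as an alternative. The pairing rests on these correlations and not on a label, and reported values come from the fit without a block. Pancreas (-0.33, 0.0271 and -0.33) and liver (0.0834) pairs did not. The test was checked on simulated data with few changed peaks and 1 setting for the spread. More unchanged peaks were called there than the adjusted p allows. The real data differ in both settings, so the size of that excess does not carry over. It remains a reason to read the test beside edgeR and DESeq2. No 2 replicates were copies of one library. One allele that all groups share is not reported here.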

Additional observations from a re-analysis of the deposited data

How the results depend on the processing

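Groups of 2 or 3 samples limit every comparison, and leaving out 1 of them was the alternative that moved most counts. No called difference changed sign under any alternative run for it. Without 1 sample, calls ranged from 19 to 29 for Liv_OFF against Lung_OFF, 23 to 32 for Liv_OFF against Panc_OFF, 3 to 20 for Lung_OFF against Panc_OFF, 8 to 20 for Liv_ON against Lung_ON, 27 to 34 for Liv_ON against Panc_ON, 27 to 33 for Lung_ON against Panc_ON, 3 to 13 for restoration in the pancreas, 0 to 0 in the liver and in the lungs, 3 to 8 for its average, and 0 to 0, 0 to 0 and 0 to 8 for liver against lungs, liver against pancreas and lungs against pancreas. A group left with 1 sample was assumed to vary like the others. Of the 27 alternatives run for most calls, 16 left out 1 sample. A sample outside the groups compared could change a call only through the shared estimate of the spread. Thresholds of 1 and 0.05 left 4 calls for Lung_OFF against Panc_OFF, 18 for Lung_ON against Panc_ON, 4 for restoration in the pancreas and 1 for its average. DESeq2 called 1 peak for restoration in the lungs and 3 for lungs against pancreas. For lungs against pancreas, the replicate block in every organ gave 1 call, the block in the lungs only gave 6 and the block with GC correction 0. The cause of these changes was not tested. In the other comparisons the replicate block moved no count by more than 1.5 times, and calls it removed at a peak described for a comparison are given there. Peaks under a mean of 20 rest on few reads, which limits what can be detected there.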
